A study of Bos taurus with 6 samples.

Results

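Selenoproteins, superoxide dismutases and catalase were represented on the arrays by 10 genes and 15 probes, of 15216 genes and 21790 probes that carried a gene symbol. The members were SELENOP, SELENOW and SELENOF (annotated on the array as SEPP1, SEPW1 and SEP15), GPX1, GPX3, GPX4, SOD1, SOD2, SOD3 and CAT. They were chosen with earlier results of these data known, and their probes were taken by symbol alone. RNA was from granulosa cells of mature, multiparous Hereford cross-bred beef cows, whose ages were not given in the sources used here. Cows of the long FSH group received FSH at 12-h intervals for 7 days, and cows of the conventional FSH group received it for 4 days. In both groups follicles had been ablated beforehand, a progesterone device was in place during FSH, prostaglandin was given at its end, and ovaries were removed 24 h after LH. RNA of the 3 largest follicles was pooled within a cow and amplified before labelling, and 3 cows per group were hybridised as 3 cow pairs, each on 2 two-colour arrays with the dyes swapped. The 2 arrays of a pair held the same extracts and were counted as 1 replicate, so n = 3 cow pairs throughout.

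Superoxide is a by-product of respiration and of steroid synthesis. Superoxide dismutases convert it to hydrogen peroxide, in mitochondria (SOD2), in the cytosol (SOD1) and outside the cell (SOD3), and catalase and the glutathione peroxidases remove the peroxide. Several of these peroxidases are selenoproteins, which carry selenium as selenocysteine, and selenoprotein P is the plasma protein that carries selenium between tissues.

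A probe counted as above background when it exceeded the negative controls' mean by 2 SD, and it was tested when 3 or more of a group's 6 readings did so. The filter kept 9 of the 10 member genes and 12 of their 15 probes, and the brightest tested probe stands for each gene. The study's threshold, an unadjusted p of at most 0.05 and at least a 2-fold difference in limma, was passed by 2 members that were higher in the long FSH group (SOD2 and SELENOP) and by 0 that were lower. Over all 9933 genes tested, 3.39% passed as higher and 2.02% as lower, 5.42% in all. After Benjamini-Hochberg adjustment in limma, 0 members and 0 genes passed, and both members named were also the only ones with an unadjusted p of at most 0.05, which 11.7% of all genes had. The other 7 tested members made no call. The median log2 ratio was -0.11 over the 9 members and 0.03 over all genes tested. The ratio had 1 sign in all 3 pairs for 4 of the 9 members (SOD2, SELENOP, SOD1 and GPX1), against 36% of all genes. An exact permutation test of 3 against 3 cows cannot give a p below 0.1, and an exact sign-flip test of 3 pairs cannot give one below 0.25, so neither was used.

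All log2 ratios are long FSH over conventional FSH. The dyes in the sample labels and in the design text of the series are opposite, and the direction used here is the likely one, shared by the design text and the study's legends. With the other reading every higher and lower would change places. Per array and dye, 41.8% to 51.4% of probes were above background, and the ratios of the swapped arrays correlated across probes with r = 0.432, 0.647 and 0.24 in pairs 1, 2 and 3. In bulk RNA, fewer cells of a type and less RNA per cell cannot be told apart.

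**Figure D1:**
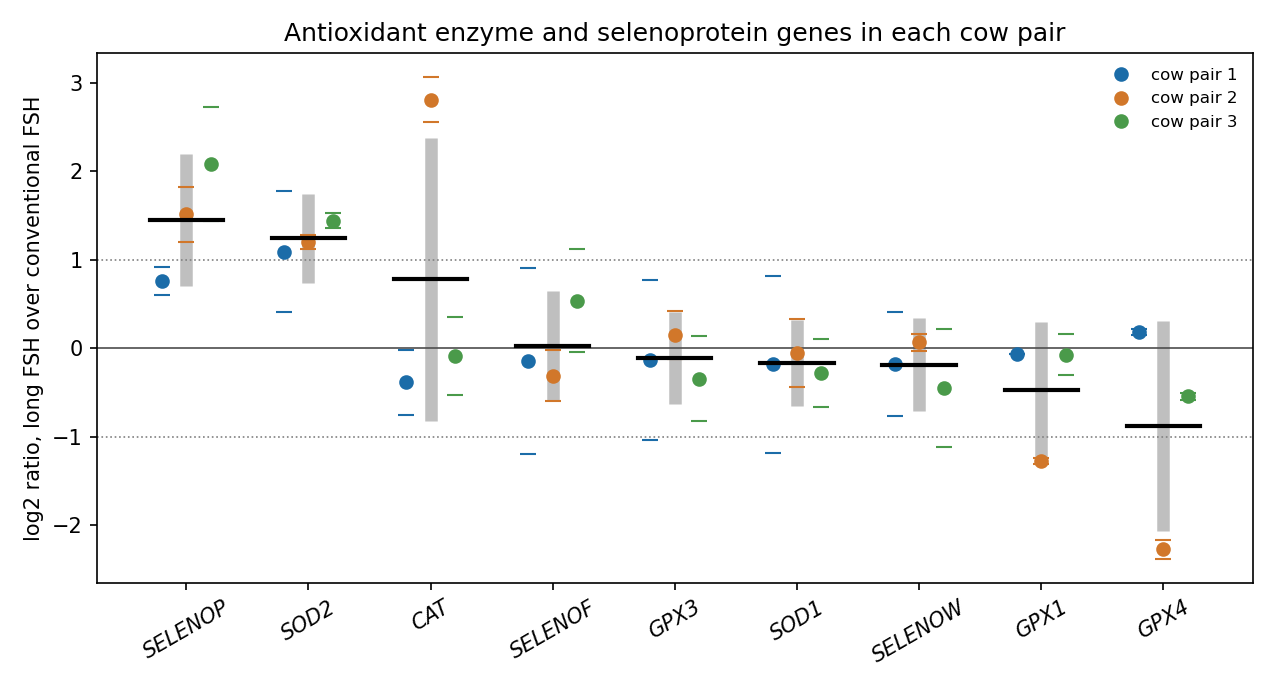
Log2 ratio, long FSH over conventional FSH, of the 9 tested member genes. Dots are the 3 cow pairs, short dashes the single arrays, black lines the means and grey bars limma's 95% intervals. Dotted lines mark a 2-fold difference. SOD2 lies between 1.09 and 1.44 in all 3 pairs, while CAT, GPX1 and GPX4 stand apart in pair 2.

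Transcripts of SOD2, the mitochondrial manganese superoxide dismutase, were more abundant in the long FSH group. The normalized log2 intensity of SOD2 was 13.93, 14.23 and 14.62 in long FSH cows 1, 2 and 3, against 12.85, 13.04 and 13.18 in conventional FSH cows 1, 2 and 3. The groups did not overlap, and the lowest long FSH cow was 0.75 above the highest conventional FSH cow on the log2 scale. Cow levels did not overlap, with long FSH higher, in 8.63% of all genes tested. The log2 ratio was 1.09, 1.20 and 1.44 in pairs 1, 2 and 3. Its mean of 1.24 ± 0.18 (SD, n = 3 cow pairs) is a 2.36-fold difference with a 95% interval of 1.67 to 3.35-fold. Limma gave SOD2 an unadjusted p of 0.0011 and an adjusted p of 0.201. SOD2 was higher on 6 of 6 arrays, from 0.40 on the first array of pair 1 to 1.77 on its dye swap, and 6.46% of all genes were higher on all 6. All 12 readings were above background and none was saturated: background-subtracted intensities were 11260 to 27569 in the long FSH group and 6744 to 10521 in the conventional FSH group. In limma fits on 6 arrays with the cow pair as a replicate block, SOD2 and SELENOP passed the adjusted threshold (adjusted p = 0.0179 and 0.0219) among 374 genes. Those fits count both arrays of a pair as separate measurements.

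SOD1, the cytosolic copper and zinc enzyme, was measured by 2 probes with all 12 readings above background. Its brighter probe had levels of 13.05, 12.82 and 13.02 in long FSH cows and 13.24, 12.88 and 13.30 in conventional FSH cows, and the groups overlapped. The log2 ratio was -0.17 ± 0.11 (SD, n = 3 cow pairs; limma, adjusted p = 0.728), with a 95% interval of -0.66 to 0.31 that lies within a 2-fold difference either way. The second SOD1 probe gave -0.02 ± 0.20. The swapped arrays of pair 1 gave 0.81 and -1.18 for the brighter probe, a larger gap than any between pairs. SOD3, the extracellular enzyme, had 0 of 6 readings above background in the long FSH group and 0 of 6 in the conventional FSH group, and was not tested.

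Catalase, the peroxisomal enzyme that breaks down hydrogen peroxide, differed in 1 pair only. The level of CAT was 13.01, 13.09 and 13.24 in long FSH cows 1, 2 and 3, against 13.40, 10.28 and 13.33 in conventional FSH cows 1, 2 and 3. Of the 6 cows, 5 lay between 13.01 and 13.40, and conventional FSH cow 2 differed from their mean by -2.93 on the log2 scale. Both arrays of pair 2 showed it: background-subtracted intensities of CAT were 8413 and 8646 in long FSH cow 2, against 1027 and 1192 in conventional FSH cow 2. The ratio of this pair was 7.00-fold, and 1.21% of tested probes were as far or farther apart in pair 2. Over the 3 pairs the log2 ratio was 0.78 ± 1.77 (SD, n = 3 cow pairs; limma, adjusted p = 0.659). Without pair 2 it was -0.24.

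The glutathione peroxidases reduce hydrogen peroxide (GPX1, GPX3) or lipid hydroperoxides in membranes (GPX4) with the electrons of glutathione. None of the 3 genes passed the threshold. GPX4 had levels of 10.57, 9.13 and 9.88 in long FSH cows 1, 2 and 3, against 10.39, 11.40 and 10.42 in conventional FSH cows 1, 2 and 3. The lowest of the 6 cows was long FSH cow 2 and the highest was conventional FSH cow 2, so the spread of GPX4 lay in pair 2. The log2 ratio was 0.18, -2.27 and -0.54 in pairs 1, 2 and 3, and the 2 arrays of pair 2 gave -2.17 and -2.38. Its mean was -0.88 ± 1.26 (SD, n = 3 cow pairs; limma, adjusted p = 0.576). Without pair 1 the mean was -1.41, which passed the study's threshold as lower. Without pair 2 it was -0.18.

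GPX1, the main cytosolic glutathione peroxidase, had levels of 10.15, 8.86 and 9.28 in long FSH cows 1, 2 and 3, against 10.21, 10.13 and 9.35 in conventional FSH cows 1, 2 and 3. The groups overlapped, and pairs 1 and 3 were nearly level (-0.07 and -0.08). Pair 2 gave -1.28, which is 2.42-fold less in long FSH cow 2. The mean was -0.47 ± 0.69 (SD, n = 3 cow pairs; limma, adjusted p = 0.612). CAT, GPX4 and GPX1 were thus 3 of the 9 tested members with at least a 2-fold difference in pair 2 and less in pairs 1 and 3. Of all genes tested, 10.4% had such a pattern, which was noticed after the values were seen.

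GPX3, the secreted glutathione peroxidase, was dim. Its brighter probe exceeded background in 5 of 6 long FSH readings and 4 of 6 conventional FSH readings, at levels of 7.07 to 8.34 in long FSH cows and 7.01 to 8.48 in conventional FSH cows. The log2 ratio was -0.11 ± 0.25 (SD, n = 3 cow pairs; limma, adjusted p = 0.831). The other GPX3 probe, with 1 of 6 long FSH readings and 0 of 6 conventional FSH readings above background, was not tested.

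SELENOP, the gene of selenoprotein P, had the largest mean ratio of the members. Its level was 10.40, 9.78 and 11.80 in long FSH cows 1, 2 and 3, against 9.65, 8.27 and 9.72 in conventional FSH cows 1, 2 and 3. The groups did not overlap, as in 8.63% of all genes in that direction. The gap was only 0.06 on the log2 scale, between long FSH cow 2 and conventional FSH cow 3. Within pairs the difference was wider, with log2 ratios of 0.75, 1.51 and 2.08 in pairs 1, 2 and 3. The mean of 1.45 ± 0.66 (SD, n = 3 cow pairs) is a 2.73-fold difference with a 95% interval of 1.63 to 4.57-fold. Limma gave SELENOP an unadjusted p of 0.00352 and an adjusted p of 0.265. SELENOP was higher on 6 of 6 arrays, from 0.60 to 2.72, with all 12 readings above background. Array ratios averaged within each slide, where dye does not cancel, were 0.90 to 2.72. Background-subtracted intensities of SELENOP were 760 to 4337 in the long FSH group and 216 to 957 in the conventional FSH group. The study names SELENOP among its higher genes from these same arrays, so its direction is no independent evidence.

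SELENOW, a small cytosolic selenoprotein, and SELENOF, a selenoprotein of the endoplasmic reticulum, made no call. The brightest SELENOW probe averaged 14.70 ± 0.20 in long FSH cows and 14.89 ± 0.13 in conventional FSH cows (log2 level, SD over cows). Its mean log2 ratio was -0.19 ± 0.26 (SD, n = 3 cow pairs; limma, adjusted p = 0.725). The other SELENOW probes gave 0.01 ± 0.43 and 0.20 ± 0.44. SELENOF had levels of 14.52, 14.90 and 14.85 in long FSH cows and 14.66, 15.21 and 14.32 in conventional FSH cows. Its log2 ratio was 0.03 ± 0.45 (SD, n = 3 cow pairs; limma, adjusted p = 0.972), and the swapped arrays of pair 1 gave 0.91 and -1.20. The other SELENOF probe, above background in 2 of 6 readings of each group, was not tested. The intervals of SELENOW, SELENOF, SOD1 and GPX3 lay within a 2-fold difference either way, as did those of 62% of all genes.

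**Figure D2:**
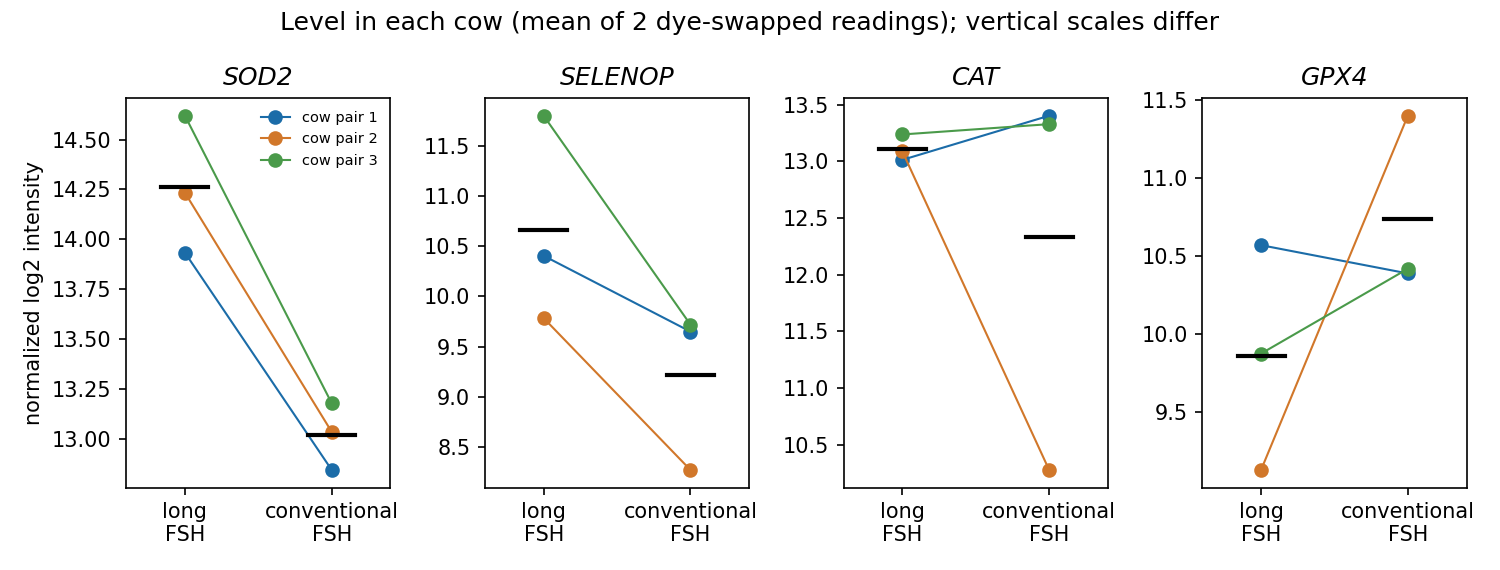
Normalized log2 intensity in each cow for SOD2, SELENOP, CAT and GPX4, with long FSH cows at the left and conventional FSH cows at the right of each panel. Lines join the cows of a pair, black bars are group means, and each panel has its own vertical scale. SOD2 and SELENOP separate the groups, the SELENOP groups by 0.06 only, and conventional FSH cow 2 stands low for CAT at 10.28.

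Around the members, 6 lists of related genes were counted in the same fit. Of 19 other selenoproteins, 15 were tested, 0 were higher and 0 lower, and their median log2 ratio was -0.06. The smallest p among them belonged to TXNRD1, the cytosolic thioredoxin reductase, at -0.63 ± 0.52 (SD, n = 3 cow pairs; limma, adjusted p = 0.542). TXNRD1 levels were 13.03, 12.51 and 12.81 in long FSH cows and 13.47, 13.73 and 13.03 in conventional FSH cows. Its groups did not overlap, as in 6.25% of all genes in that direction. However, long FSH cow 1 (13.026) and conventional FSH cow 3 (13.034) were nearly level.

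Genes of selenium delivery and selenocysteine synthesis were tested for 4 of 10, of which LRP8 was lower and 0 were higher. Over all genes tested, 2.02% were called lower and 3.39% higher. LRP8 encodes a lipoprotein receptor that takes up selenoprotein P in mouse brain and testis. Its level was 13.60, 8.52 and 8.32 in long FSH cows 1, 2 and 3, against 14.85, 14.60 and 11.64 in conventional FSH cows 1, 2 and 3. The groups overlapped because long FSH cow 1 was high, but LRP8 was lower in every pair, by log2 ratios of -1.25, -6.08 and -3.32. The mean was -3.55 ± 2.42 (SD, n = 3 cow pairs; limma, adjusted p = 0.333). Without pair 1 it was -4.70 and without pair 2 -2.28, both past the study's threshold. LRP8 thus passed as lower while SELENOP passed as higher, and LRP8 too is among the genes the study names from these arrays.

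Superoxide sources and suppliers of metal to the dismutases were tested for 5 of 15 genes, with 1 higher and 1 lower. Over all genes tested, 3.39% were called higher and 2.02% lower. XDH, xanthine oxidoreductase, which can release superoxide while making urate, had levels of 10.05, 9.30 and 13.05 in long FSH cows 1, 2 and 3, against 8.69, 7.11 and 8.18 in conventional FSH cows 1, 2 and 3. The XDH groups did not overlap, as in 8.63% of all genes in that direction. Its log2 ratio was 2.80 ± 1.84 (SD, n = 3 cow pairs; limma, adjusted p = 0.318), with 4.87 in pair 3. Without pair 1 the XDH ratio was 3.53 and without pair 3 it was 1.77, and both passed the study's threshold. In the conventional FSH group 4 of 6 readings of XDH were above background. The NADPH oxidase genes CYBA, CYBB, NCF1, NCF4, NOX4, NOX5, DUOX1 and DUOX2 were not above background in enough readings to be tested.

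SLC39A14, an importer of zinc, iron and manganese, had levels of 10.84, 9.99 and 10.45 in long FSH cows 1, 2 and 3, against 12.36, 13.00 and 10.54 in conventional FSH cows 1, 2 and 3. Its log2 ratio was -1.54 ± 1.46 (SD, n = 3 cow pairs; limma, adjusted p = 0.483), with -0.09 in pair 3. This call was lost in 5 of 22 alternatives, among them leaving out pair 1 or pair 2 (-1.55 and -0.81). A second, dimmer SLC39A14 probe gave -0.17 ± 0.61.

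In the remaining lists 0 genes passed in either direction. The cysteine glutathione peroxidases, which lack selenium, were tested for 2 of 3 genes, and GPX7, an enzyme of the endoplasmic reticulum, gave -0.85 ± 0.48 (SD, n = 3 cow pairs; limma, adjusted p = 0.407), short of a 2-fold difference. Cow levels of GPX7 did not overlap, as in 6.25% of all genes in that direction. Limma's unadjusted p was 0.0172, and 11.7% of all genes had one of at most 0.05. GPX7 was called lower in 3 of 22 alternatives (-1.05 without pair 3, -1.10 without the dye-swap array of pair 2, and at a 1.5-fold limit). Glutathione supply was tested for 4 of 10 genes with a median of 0.03, and GSR, which regenerates glutathione, gave -0.27 ± 0.26. Oxidant response regulators and targets were tested for 11 of 13 genes with a median of 0.03. FTH1, the ferritin heavy chain, gave 0.25 ± 0.29 with its brightest probe and 1.03 ± 0.36 with another, which alone would pass the study's threshold (limma, adjusted p = 0.299).

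**Figure D3:**
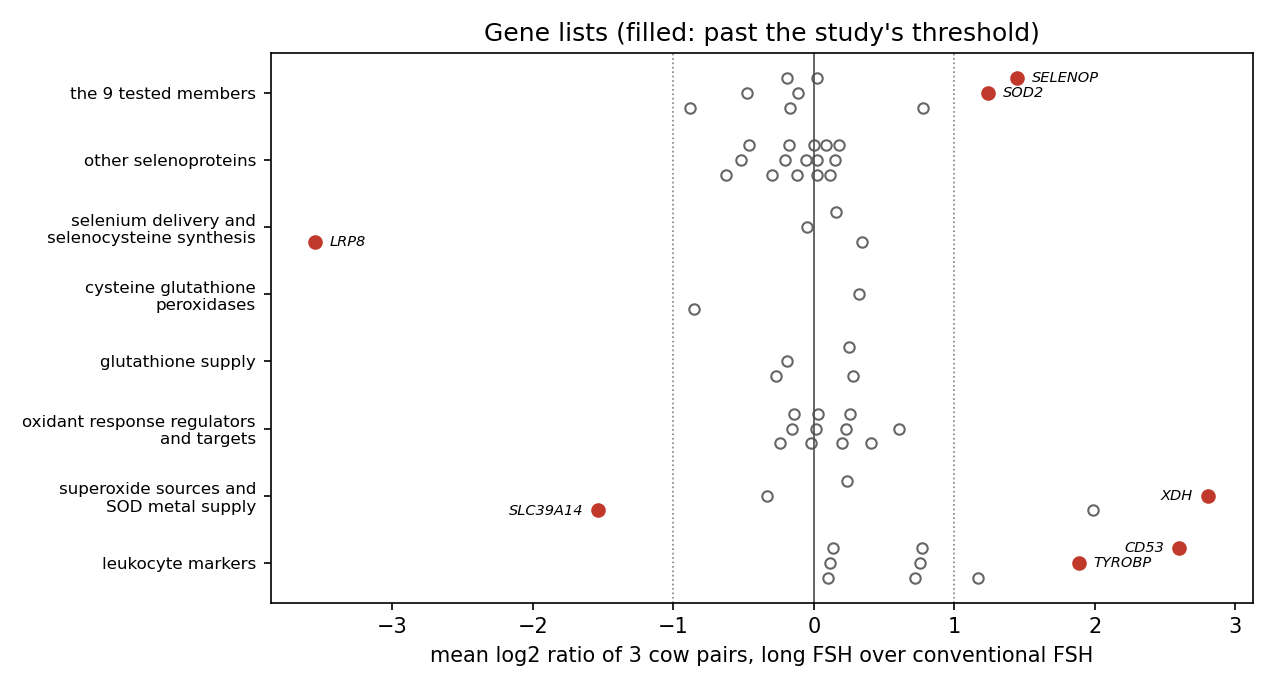
Mean log2 ratio of the 3 cow pairs, long FSH over conventional FSH, for each tested gene of the members, the 6 related lists and the leukocyte markers. Filled symbols passed the study's threshold and dotted lines mark a 2-fold difference. The members hold 2 filled genes on the right, and LRP8 at -3.55 lies farthest to the left.

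Markers of granulosa cells and of other cells were read on the same arrays. Of all 9933 genes tested, 4689 had ratios below 0 and 2.02% were called lower. Of 8 granulosa markers 5 were tested, and all 5 had ratios below 0, with a median of -0.65 (-0.61, -0.58 and -0.72 in pairs 1, 2 and 3). Their summed level was 22414 to 27218 in long FSH cows and 37900 to 42141 in conventional FSH cows, without overlap. Levels of single genes did not overlap, with long FSH lower, in 6.25% of all genes tested. Such a sum adds intensities, so the brightest markers weigh most in it. Its part in the ratios of SOD2, SELENOP and LRP8 was not tested. CYP19A1 (aromatase) was the 1 call and was lower (-1.81 ± 1.35, and -1.05 without pair 2), with 2 dimmer probes at -0.87 and -1.28. Among the other granulosa markers, FSHR and INHA were above background in all 12 readings, whereas FOXL2, NR5A1 and HSD17B1 were not above background in enough readings to be tested. Of 13 leukocyte markers with a probe, 9 were tested and all 9 had ratios above 0, against 5244 of all 9933 genes. Of these 9 markers, 2 were called higher, against 3.39% of all genes. The calls were CD53 (2.60 ± 2.14, and 1.36 without pair 3; 0.33 ± 0.67 with a dimmer probe) and TYROBP. TYROBP was not above background in any conventional FSH reading, so it was tested only through its long FSH readings. The bound on its means was 2.45-fold higher in the long FSH group (limma, adjusted p = 0.373). Without pair 3 the measured log2 ratio of TYROBP was 1.10, and both calls were lost in the deposited table (2.36 for CD53 and 1.57 for TYROBP). Bounds of this kind compare the mean of the brighter group with a raised mean of the dimmer group. Dimmer-group readings under the lowest signal above background of their array and dye were set to that signal. These bounds do not allow for the spread between cows. The summed leukocyte level was 3726 to 15715 in long FSH cows and 2545 to 6301 in conventional FSH cows. The leukocyte median by pair was 0.42, 0.05 and 1.62, beside 0.75, 1.51 and 2.08 for SELENOP, 1.09, 1.20 and 1.44 for SOD2, and 1.36, 2.19 and 4.87 for XDH. All 4 were highest in pair 3, but the leukocyte median was lowest in pair 2, and SELENOP, SOD2 and XDH were lowest in pair 1. The part of leukocytes in these ratios was not tested. CSF1R, CD2, LCP1 and ITGB2 were not above background in enough readings to be tested.

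Theca, endothelial, red blood cell and oocyte markers gave 0 calls among 3, 4, 2 and 2 tested genes. CYP17A1, PECAM1, VWF, HBA, HBB, ZP2, ZP3, ZP4 and GDF9 were not tested for want of readings above background. The smallest p of these lists belonged to ACTA2 (0.73 ± 0.99), KDR, SLC4A1 (-0.27 ± 0.29) and BMP15 (0.17 ± 0.24). KDR was not above background in the long FSH group and was tested only through its conventional FSH readings. The bound on its means was 1.41-fold lower in the long FSH group, and KDR made no call (limma, adjusted p = 0.545).

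The genes whose ratios on the 6 arrays lay nearest to those of SOD2 were GPNMB, a glycoprotein of lysosomes and macrophages, MAP3K1, a kinase of stress signalling, and LIPA, the lysosomal acid lipase. Their Euclidean distances were 0.602, 0.765 and 1.15, over 6 arrays of 3 cow pairs. All 3 passed the study's threshold as higher, with log2 ratios of 1.31 ± 0.31 for GPNMB, 1.17 ± 0.18 for MAP3K1 and 1.08 ± 0.22 for LIPA (SD, n = 3 cow pairs). The MAP3K1 call was lost with probe means (0.54) and without the first array of pair 2 (1.00). The LIPA call was lost without background subtraction (0.92), in the deposited table (0.76) and without pair 3 (0.99). Nearness to SOD2 selected them, so these ratios are a description.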

How the data were processed

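Deposited by the authors were spot intensity values (scanner medians, foreground and background), and log2 ratios that they made by background subtraction, loess and quantile normalization. The deposited log2 table served as an alternative, because each of its columns tracked the swapped array of its pair (r = 0.842 to 0.905) and ran against the array whose name it bears (r = -0.693 to -0.387). Its column medians lie at 0, and its direction was set by the dyes of the sample labels, which then runs with the ratios used here.

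Background was subtracted from each intensity, 0.5 replaced values not above 0, and loess normalized the ratios of each array. Between arrays, quantile normalization of the mean intensity set the cow levels and left the ratios unchanged. The 2 arrays of a pair were averaged, and limma 3.58.1 in R 4.3.3 was fitted to the 3 pair means of 23480 of 43794 probes, with Benjamini-Hochberg adjustment over all of them. Pairing follows the cow numbers of the labels. Deviations from group means correlated with r = 0.153 to 0.260 within pairs and -0.0131 at most between pairs. Cows of a pair shared arrays, and deviations from a mean of 3 cows sum to 0. These correlations therefore cannot test whether the cows were matched in any other way. The fit was tested on simulated pair values without dye or array effects, so that test does not cover those effects.

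Symbols came from the platform annotation (21790 probes with a symbol, 22004 without), with 1522 older ones renamed through RefSeq's ARS-UCD2.0 gene table. The probe named SELP is P-selectin and was not read as SELENOP, of which SELP is an old synonym. The build behind the probes is not given in the sources used here. Members and lists were chosen with earlier results of these data known. All members were named, then list genes past the study's threshold or, failing these, the one with the smallest p, and the 3 genes nearest to the member with the smallest p. Alternatives covered background, normalization, filters, replicate unit, the deposited table, limma options, probe summary, fold threshold and leaving out each pair or array.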

Additional observations from a re-analysis of the deposited data

How the results depend on the processing

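SOD2 and SELENOP were called higher in all 22 alternatives (log2 ratios of 1.01 to 1.47 and 1.13 to 1.80; limma's adjusted p of 0.00486 to 0.718 and 0.00720 to 0.662), and LRP8 was called lower in all 22. For SOD2, SELENOP and LRP8, requiring all 12 readings, dropping the filter and taking probe means left the ratios unchanged. The 1.5-fold limit reused the main fit and could not lose a call. With the cow pair as a replicate block on 6 arrays (correlation 0.145), 2 members and 374 genes passed limma's adjusted threshold. The number was 457 genes without the block and 828 with a dye term and slide as a block, both with the same 2 members. On pair means it was 0, but 48 with limma's trend and robust options, 1 with no filter, 15 without pair 2, 55 without pair 3 and 3 without the dye-swap array of pair 3, with 0 members each time. Members called lower numbered 0 to 1 when a pair or array was left out, the 1 being GPX4 without pair 1. The 6 related lists held 1 gene called higher, but 2 with quantile normalization of single channels, no filter or any fit on 6 arrays, 0 with all 12 readings above background, and 1 to 3 leaving out pairs or arrays. They held 2 called lower, but 1 in the deposited table or with probe means, 3 at 1.5-fold, and 1 to 4 leaving out pairs or arrays. Over all genes, 337 were higher, but 210 with all 12 readings above background, 186 in the deposited table, 637 at 1.5-fold, and 305 to 594 leaving out pairs or arrays. There were 201 lower, but 418 at 1.5-fold and 184 to 397 leaving out pairs or arrays, with both upper ends without pair 3. Ratios near 0 changed sign. SELENOW was 0.00702 with probe means and -0.41 to 0.0333 leaving out pairs or arrays. SELENOF was -0.15 with median centring, -0.00833 with quantile normalization, -0.0288 with the dye term and -0.33 to 0.38 leaving out pairs or arrays. Over the same omissions GPX3 was -0.42 to 0.19, SOD1 -0.51 to 0.16 and CAT -0.24 to 1.36. The cause of these shifts was not tested. GPX3 had no value with all 12 readings required. Scaling moved the median of all genes by less than 0.1. Precision is limited by 3 cow pairs, and for GPX3 and SOD3 by signal near background.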
